A study of Mus musculus with 18 samples.

Results

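Periostin and other matricellular proteins were followed across the 6 groups of adult mouse ventricles in this series. The genes were a named set of 10: Postn, Thbs4, Thbs1, Thbs2, Spp1, Tnc, Sparc, Fn1, Cilp and Fbn1. Every probe set that the platform annotation assigns to any of these symbols alone was taken. This gave 15 probe sets of 8 genes, of 45101 probe sets and 18194 named genes on the array, and 13 of these 15 were among the 27022 probe sets tested. Spp1 and Fbn1 had no probe set under their symbol in the annotation table and were not analysed here. A further probe set that the table assigns to Thbs1 together with a second gene was left out. The probe sets 1437218_at of Fn1 and 1456344_at of Tnc lay below the brightness filter and are given as values only.

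Matricellular proteins are secreted into the extracellular matrix, where they bind collagen, integrins and growth factors and tune how cells attach and signal. Many are scarce in the healthy adult heart and are made in larger amounts during development, after injury and under pressure overload, largely by fibroblasts. Periostin, the product of Postn, assists collagen cross-linking and is the usual marker of activated cardiac fibroblasts. Transforming growth factor beta is a known inducer of several of these genes.

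The hearts came from male mice of the strain labelled CR7BL6, 10 weeks old. All mice, controls included, received 0.7 mg tamoxifen on 3 days; the controls were littermates of the SRF-flex2neo genotype and the mutants carried the labelled SRFHKO genotype, in which tamoxifen induces deletion of the gene for serum response factor (SRF), a transcription factor that binds CArG boxes. At day 8 there were 2 control and 4 SRFHKO hearts, and at day 25 there were 3 control and 3 SRFHKO hearts without further treatment. A further 3 control and 3 SRFHKO hearts at day 25 had received phenylephrine (PE), an agonist of the alpha-1 adrenergic receptor, by osmotic minipump, which ran over days 10 to 25 at a daily dose of 80 mg/kg. The labels do not name the Cre driver; in the published SRFHKO line it is a tamoxifen-activated Cre under the alpha-myosin heavy chain promoter, active in cardiomyocytes. Each of the 18 arrays is labelled as a biological replicate. A level below is log2(scaled signal + 2) of a probe set, a difference is between mean levels of groups, and a call is a limma adjusted p under 0.05.

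Array brightness before scaling, as a trimmed mean, ran from 46.6 to 148 and was highest at day 8. The sample titles name no array run, and a run that followed the days could not be told apart from day. Of the 2 Srf probe sets, 1418255_s_at overlapped between the genotypes at both days. Srf 1418256_at lay between 5.02 and 5.85 in SRFHKO hearts and between 5.97 and 6.12 in controls at day 25 without PE (adjusted p = 0.148), and overlapped with PE and at day 8. No source used here says whether either probe set covers the deleted stretch of Srf, and the genotypes are therefore named as labelled, without a check from Srf. Probe sets of all 10 listed cardiomyocyte markers passed the filter, but so did those of all 12 fibroblast and 14 macrophage markers. The summed scaled signal of the 10 cardiomyocyte markers was 72828 to 117960 over the arrays, against 11224 to 18094 for the 12 fibroblast markers. Of the 23 cardiomyocyte probe sets, 11 were called lower in SRFHKO hearts over both day 25 treatments, against 2.75% of all probe sets tested. No pair of arrays held identical values.

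The promoters of the 3 genes that rose with PE are shown, because they moved together and SRF has a known binding motif to look for. Each window runs from 250 bases before to 50 bases after a gene start in RefSeq (GRCm38.p6) and is written in the direction of the gene. The Postn windows are chr3:54359017-54359316 (plus strand) for its upstream start and chr3:54360857-54361156 (plus strand) for its downstream start. The Thbs4 window is chr13:92794769-92795068 (minus strand) and the Cilp window is chr9:65264930-65265229 (plus strand). Capitals mark matches to CATTCC, the core bound by TEAD factors.
Postn upstream start: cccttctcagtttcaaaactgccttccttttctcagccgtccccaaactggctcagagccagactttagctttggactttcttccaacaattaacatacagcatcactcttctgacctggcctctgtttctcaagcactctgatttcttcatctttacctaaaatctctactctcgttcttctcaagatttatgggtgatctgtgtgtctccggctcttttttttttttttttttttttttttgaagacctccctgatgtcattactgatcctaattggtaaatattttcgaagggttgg
Postn downstream start: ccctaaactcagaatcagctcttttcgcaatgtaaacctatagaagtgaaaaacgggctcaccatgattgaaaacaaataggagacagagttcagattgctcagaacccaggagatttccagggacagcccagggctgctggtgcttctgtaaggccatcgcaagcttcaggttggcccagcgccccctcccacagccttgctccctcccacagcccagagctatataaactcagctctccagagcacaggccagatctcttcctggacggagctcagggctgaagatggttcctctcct
Thbs4: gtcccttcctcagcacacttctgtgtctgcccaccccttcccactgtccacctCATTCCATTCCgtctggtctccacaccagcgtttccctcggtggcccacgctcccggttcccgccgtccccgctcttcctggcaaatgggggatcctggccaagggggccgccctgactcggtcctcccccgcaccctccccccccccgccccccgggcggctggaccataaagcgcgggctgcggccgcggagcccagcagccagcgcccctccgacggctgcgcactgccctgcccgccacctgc
Cilp: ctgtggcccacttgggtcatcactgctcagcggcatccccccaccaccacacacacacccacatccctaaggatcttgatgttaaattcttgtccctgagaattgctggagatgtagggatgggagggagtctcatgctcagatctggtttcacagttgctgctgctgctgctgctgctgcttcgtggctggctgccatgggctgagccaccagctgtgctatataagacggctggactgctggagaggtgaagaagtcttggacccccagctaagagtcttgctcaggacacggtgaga
Windows were at hand for 8 of the 10 listed genes, 11 windows in all. A CArG box on either strand was found in 0 of the 11 windows and in 1.63% of 32851 promoter windows of 300 bases. CATTCC on either strand was found in 1 of the 11 windows and in 14.7% of all. That window belongs to Thbs4, where 2 matches overlap by a base at positions 54 to 59 and 59 to 64 of the window. The AP-1 type motif TGANTCA was found in 0 of the 11 windows and in 7.81% of all. These are letter matches in short windows and say nothing of whether a factor binds.

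The PE arm asks how ventricles of the labelled control and SRFHKO genotypes respond to a hypertrophic agonist. Postn, Thbs4 and Cilp were higher with PE at day 25. The sample titles name no vehicle pump for the hearts without PE, so drug and pump surgery could not be told apart. Averaged over both genotypes, Postn was 3.08-fold higher with PE (95% interval 2.18 to 4.35), Cilp 3.07-fold higher (2.11 to 4.48) and Thbs4 2.25-fold higher (1.81 to 2.79), with 6 arrays on each side. These 3 were the probe sets called among the 13, all higher, against 0.411% of all 27022 probe sets called higher and 0.551% called in either direction. Unadjusted p was under 0.05 for 7 of the 13, against 12% of all. The remaining 10 probe sets, of Thbs1, Thbs2, Tnc, Sparc and Fn1, did not pass. The median difference was 0.44 over the 13 probe sets and -0.03 over all probe sets tested.

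Postn is represented by the probe set 1423606_at. In control hearts its level was 9.18, 8.95 and 8.76 without PE and 10.52, 10.20 and 10.43 with PE. The SRFHKO hearts read 8.88, 8.54 and 9.15 without PE and 11.13, 10.98 and 9.95 with PE. All 6 arrays with PE lay above all 6 day 25 arrays without it, and the lowest array with PE was replicate 3 of the SRFHKO group. The mean rose from 8.97 ± 0.21 to 10.38 ± 0.16 in control hearts and from 8.86 ± 0.31 to 10.69 ± 0.64 in SRFHKO hearts (SD, n = 3 each). The difference was 1.62 ± 0.24 (SE) over both genotypes, adjusted p = 0.00279. Within control hearts it was 1.42 ± 0.34, adjusted p = 0.192, and within SRFHKO hearts it was 1.83 ± 0.34, adjusted p = 0.0282. The interaction, the difference between the genotypes' PE responses, was 0.41 with a 95% interval of -0.58 to 1.41 (adjusted p = 0.875), so a larger response in either genotype was not resolved. The call within SRFHKO hearts was lost without any of the 3 SRFHKO arrays lacking PE, or without replicate 1 or 2 of SRFHKO with PE, with adjusted p from 0.0694 to 0.201. It was also lost with the compared groups fitted alone (adjusted p = 0.0581). The call over both genotypes held in 22 of 22 alternative analyses.

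Thbs4 encodes thrombospondin 4, a pentameric matrix and endoplasmic reticulum protein of the stressed heart. Its probe set 1449388_at read 7.01, 6.95 and 6.59 in control hearts without PE and 8.35, 7.65 and 7.99 with PE. In SRFHKO hearts the levels were 6.36, 6.47 and 6.60 without PE and 7.78, 7.80 and 7.41 with PE. The groups with and without PE did not overlap in either genotype. The replicates were tight, with SDs of 0.12 to 0.35 in the 4 groups. The difference was 1.17 ± 0.15 over both genotypes, adjusted p = 0.00149. It was 1.14 ± 0.21 in control hearts (adjusted p = 0.085) and 1.19 ± 0.21 in SRFHKO hearts (adjusted p = 0.0272). The interaction was 0.05 with a 95% interval of -0.58 to 0.68. In control hearts the call was reached without replicate 2 of the PE group (adjusted p = 0.0425). In SRFHKO hearts it was lost without any of the 3 arrays lacking PE or without replicate 2 with PE, with adjusted p from 0.0703 to 0.175. The call over both genotypes held in 22 of 22 alternatives.

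Cilp encodes cartilage intermediate layer protein, a matrix protein of cardiac fibroblasts that binds transforming growth factor beta. Its probe set 1457296_at read 7.14, 7.43 and 6.97 in control hearts without PE and 9.20, 8.08 and 8.75 with PE. In SRFHKO hearts it read 6.68, 6.86 and 7.65 without PE and 9.57, 8.95 and 7.90 with PE. The groups did not overlap in either genotype, though replicate 3 of SRFHKO without PE and replicate 3 of SRFHKO with PE lay only 0.25 apart. The difference over both genotypes was 1.62 ± 0.26, adjusted p = 0.00623. It was 1.50 ± 0.37 in control hearts (adjusted p = 0.206) and 1.74 ± 0.37 in SRFHKO hearts (adjusted p = 0.0603). Without replicate 3 of SRFHKO with PE, the lowest array for Cilp, Postn and Thbs4 alike in that group, the SRFHKO difference was 2.20 and passed (adjusted p = 0.0154). The interaction was 0.25, with a 95% interval of -0.84 to 1.34.

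**Figure D1:**
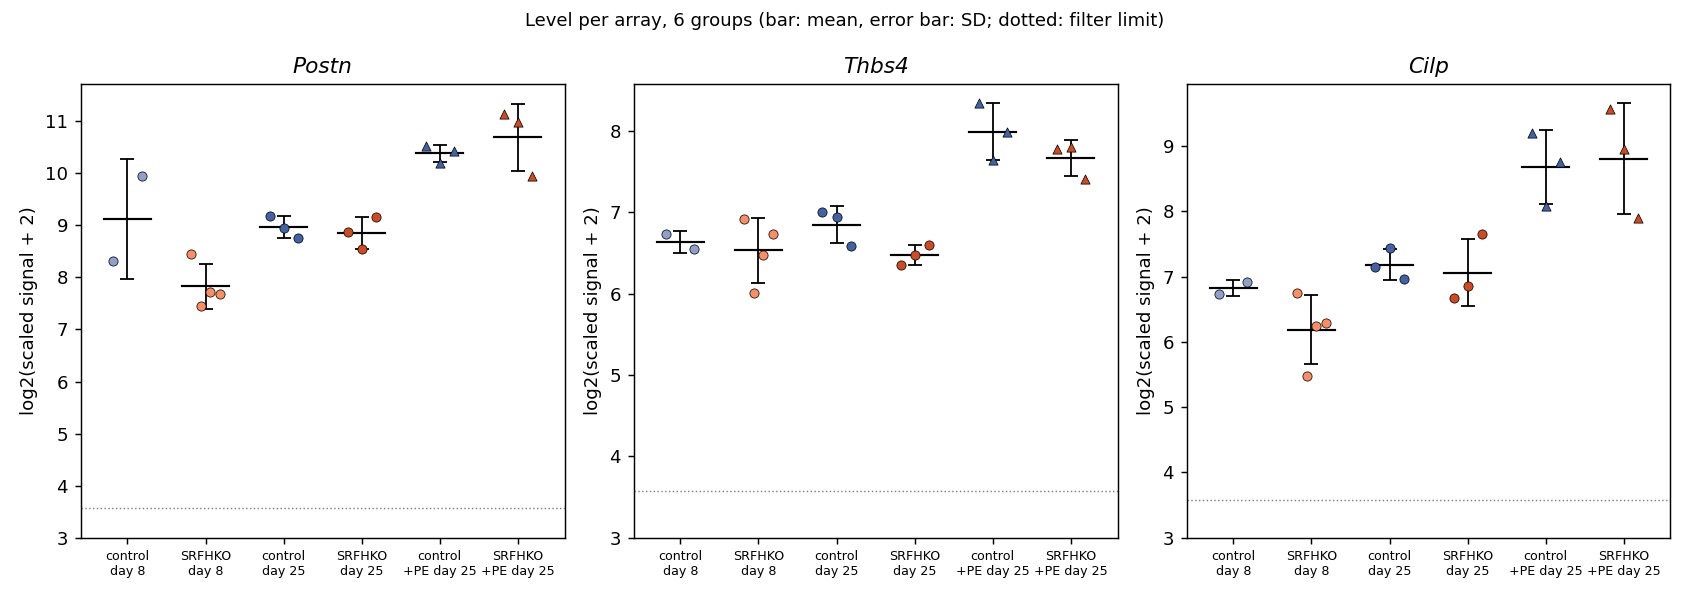
Level, log2(scaled signal + 2), of Postn, Thbs4 and Cilp on each of the 18 arrays by group, with the group mean (bar) and SD (error bar); circles are arrays without PE, triangles arrays with PE, and the dotted line is the brightness filter limit of 3.58. In each panel all 6 arrays with PE lie above the 6 day 25 arrays without PE, and for Postn the 2 control arrays of day 8 lie apart, at 8.31 and 9.94.

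Tenascin C, encoded by Tnc, is an anti-adhesive protein of wound edges and the embryonic heart. Its probe set 1416342_at read 4.31, 3.76 and 2.48 in control hearts without PE and 5.38, 5.05 and 5.25 with PE. In SRFHKO hearts it read 1.41, 3.64 and 4.04 without PE and 4.45, 5.58 and 4.45 with PE. The PE groups did not overlap with the groups lacking PE in either genotype, a pattern that 0.94% of all probe sets tested showed in the higher direction. The dim arrays spread widely, and the difference of 1.75 ± 0.64 over both genotypes did not pass (adjusted p = 0.267). A single array in each day 25 group without PE lay below the filter limit, as did every array for the dim probe set 1456344_at, at 1.11 to 3.41.

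Sparc encodes a collagen-binding glycoprotein needed for normal collagen fibre assembly. Its probe set 1448392_at read 10.58, 10.05 and 9.35 in control hearts without PE and 10.51, 10.65 and 10.54 with PE, where control replicate 1 without PE overlapped the PE group. Among SRFHKO hearts it read 9.95, 9.79 and 10.12 without PE and 10.71, 11.06 and 10.79 with PE, with no overlap. That SRFHKO difference was 0.90 (adjusted p = 0.176), and of the alternatives run passed only with the compared groups fitted alone (0.0376). The difference over both genotypes was 0.74 ± 0.18, adjusted p = 0.0674, and it passed without control replicate 1 lacking PE (0.88, adjusted p = 0.0177). The second Sparc probe set, 1416589_at, gave 0.33 (adjusted p = 0.39). The third, 1458204_at, was dim, between 2.52 and 5.28 over the 18 arrays, and gave 0.44 (adjusted p = 0.778).

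Thrombospondins 1 and 2 did not pass in any PE comparison. Thbs1 encodes the thrombospondin that activates latent transforming growth factor beta. Its probe set 1460302_at read 6.02, 6.02 and 5.51 in control hearts without PE and 6.53, 5.45 and 6.21 with PE. In SRFHKO hearts the same probe set read 5.88, 4.80 and 5.97 without PE and 6.17, 7.54 and 6.19 with PE, so replicate 2 was lowest in one group and highest in the other. Its difference was 0.65 ± 0.27 over both genotypes (adjusted p = 0.34), and that of the second Thbs1 probe set, 1450377_at, was 0.34 ± 0.23 (adjusted p = 0.605). Thbs2, which encodes an antiangiogenic thrombospondin that acts on collagen fibril assembly, had 3 probe sets with differences of 0.01, -0.24 and -0.57 (adjusted p from 0.439 to 0.989). The third of these, 1447862_x_at, was lower without overlap in SRFHKO hearts with PE (5.81, 4.55 and 5.22) than without (6.03, 6.09 and 5.94), adjusted p = 0.516; 8.5% of all probe sets separated in that way.

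Fibronectin, encoded by Fn1, is the integrin-binding scaffold on which other matrix proteins are laid down. Its probe set 1426642_at read 8.51, 8.34 and 8.42 in control hearts without PE and 8.38, 8.67 and 8.30 with PE, a difference of 0.03 (adjusted p = 0.988). In SRFHKO hearts it read 8.00, 7.62 and 7.73 without PE and 8.57, 8.80 and 8.16 with PE, without overlap. That difference was 0.73 ± 0.36 (adjusted p = 0.533). The interaction was 0.70 with a 95% interval of -0.37 to 1.77 (adjusted p = 0.792). The dim probe set 1437218_at lay between 1.36 and 3.86 on all arrays.

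**Figure D2:**
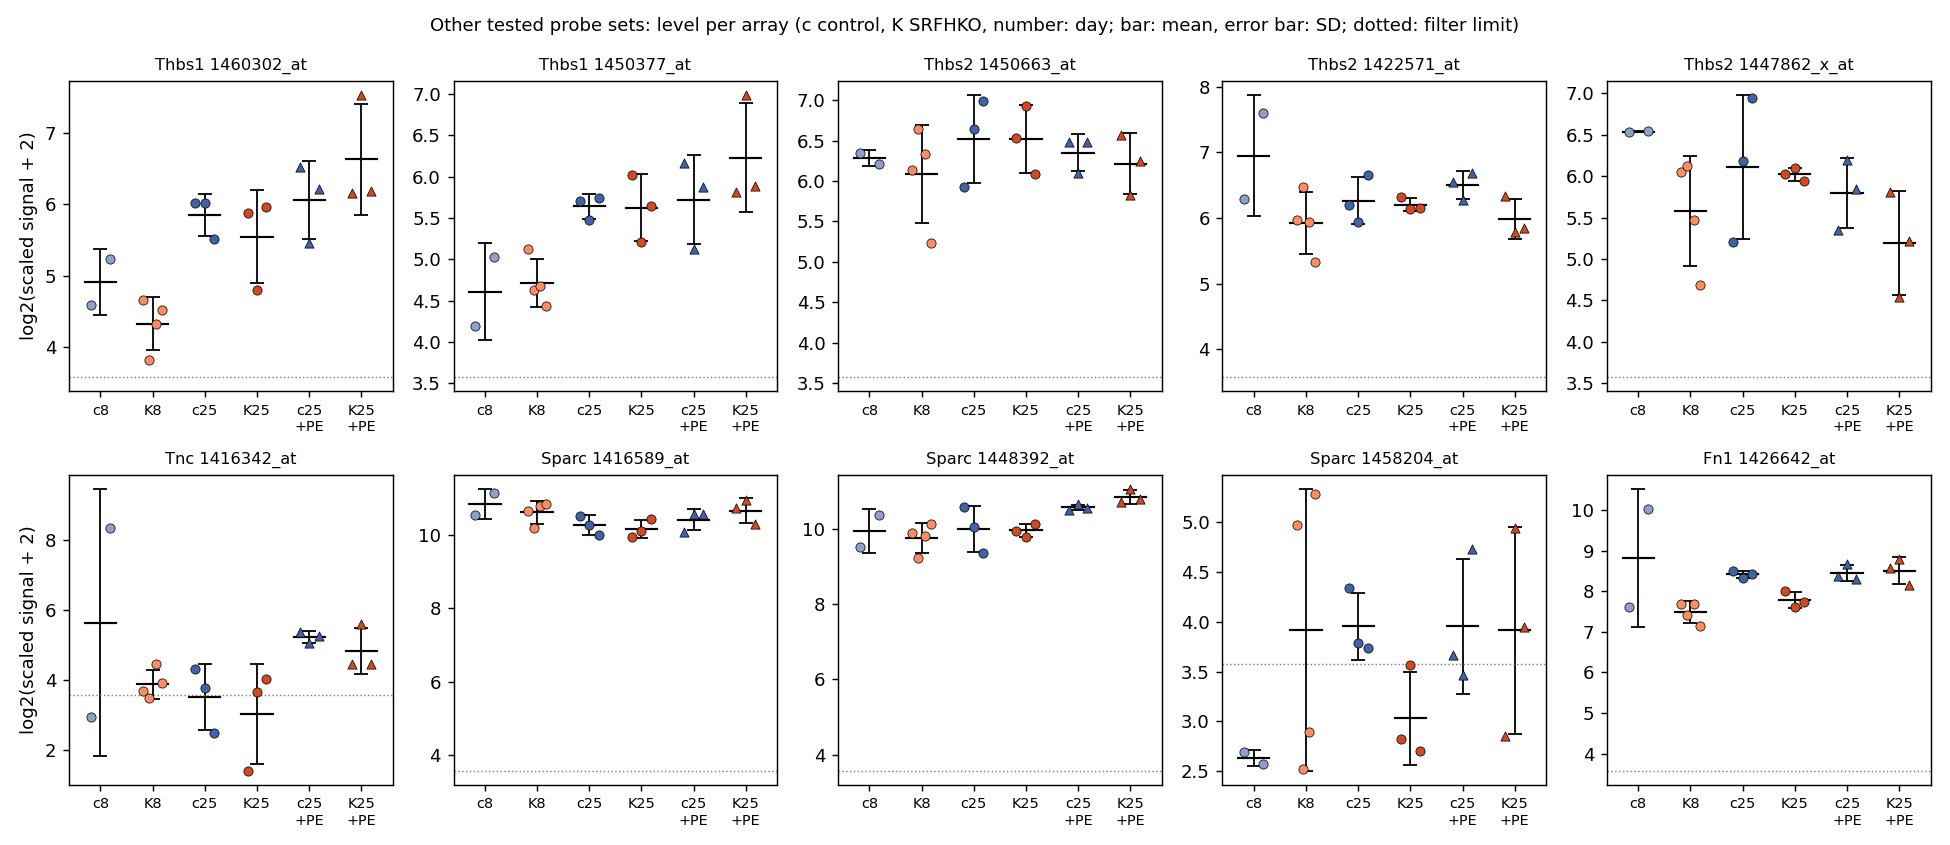
Level of the 10 other tested probe sets on each array, drawn as for the first 3 genes, with c for control, K for SRFHKO and the number for the day. For Tnc all 6 arrays with PE (4.45 to 5.58) lie above the 6 day 25 arrays without PE (1.41 to 4.31), and the day 8 control arrays stand at 2.93 and 8.32.

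Counted over the 13 probe sets, 0 were called for PE within control hearts, where 4 had an unadjusted p under 0.05 and 0.0259% of all probe sets were called. Unadjusted p was under 0.05 for 10.1% of all. Within SRFHKO hearts 2 were called, those of Postn and Thbs4, both higher, against 0.122% of all called higher and 0.185% in either direction, and 6 had an unadjusted p under 0.05 (9.81% of all). The median difference was 0.21 in control hearts and 0.88 in SRFHKO hearts, against -0.03 over all probe sets in each. For the interaction 0 of the 13 were called, 0 had an unadjusted p under 0.05 (7.4% of all), and 1 of 27022 probe sets (0.0037%) was called. The PE groups did not overlap, in the higher direction, in 4 of 13 probe sets in control hearts (5.81% of all) and in 7 of 13 in SRFHKO hearts (7.31% of all). In both genotypes at once this held for 4 of the 13 probe sets, those of Postn, Thbs4, Cilp and Tnc (0.94% of all).

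**Figure D3:**
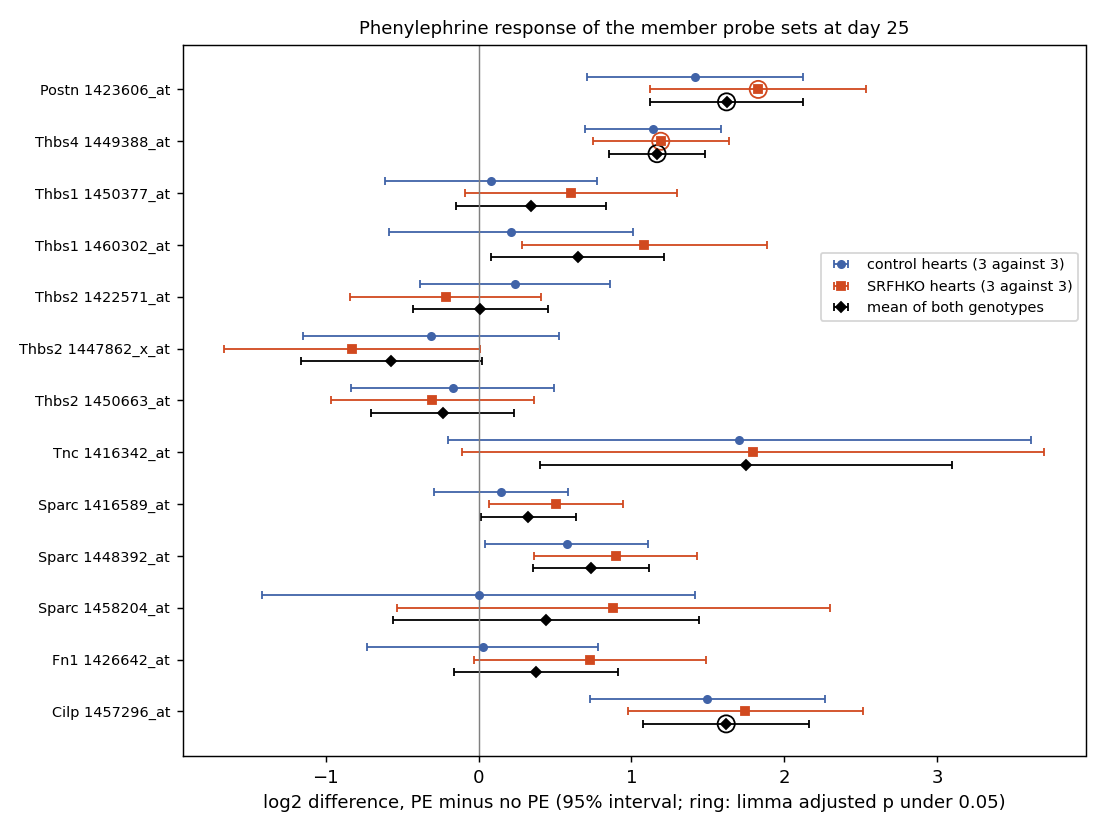
Difference in level between PE and no PE at day 25 for the 13 tested probe sets, with 95% intervals, in control hearts, in SRFHKO hearts and averaged over both; rings mark limma adjusted p under 0.05. Postn, Thbs4 and Cilp have averaged differences of 1.62, 1.17 and 1.62, and the interval of Tnc (0.40 to 3.10) is the widest of the averaged differences.

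The genotype comparison at day 25 sets hearts labelled SRFHKO against control hearts of the same treatment. None of the 13 probe sets was called without PE (2.18% of all were called in either direction), with PE (0.929%) or over both treatments (5.84%), by limma. Unadjusted p was under 0.05 for 0, 0 and 1 of the 13, against 17.4%, 12.8% and 20.9% of all. Averaged over both treatments the difference of Postn was 0.10 with a 95% interval of -0.40 to 0.60, and that of Cilp was 0.00 with an interval of -0.54 to 0.55. Thbs4 differed by -0.35 ± 0.15 (adjusted p = 0.185). Fn1 without PE was lower in all 3 SRFHKO hearts, at 7.62 to 8.00 against 8.34 to 8.51 in controls (-0.64 ± 0.36, adjusted p = 0.375), a separation in the lower direction that 11.6% of all probe sets showed. With PE the Fn1 levels overlapped, with a difference of 0.06. The dim Sparc 1458204_at also separated without PE, at 2.70 to 3.57 in SRFHKO hearts against 3.74 to 4.34 (adjusted p = 0.511). With PE, Sparc 1448392_at was the 1 probe set of the 13 to lie higher in SRFHKO hearts without overlap (8.41% of all did), by 0.28 (adjusted p = 0.712). The Fn1 and Sparc values without PE enter both this comparison and the PE comparisons, which are therefore not independent.

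At day 8 the 2 control hearts lay further apart than the genotype means for Postn, Fn1 and Tnc. Postn read 8.31 and 9.94 in the controls and 8.46, 7.46, 7.72 and 7.69 in the SRFHKO hearts. Fn1 read 7.61 and 10.02 in the controls and 7.69, 7.42, 7.69 and 7.14 in the SRFHKO hearts. Tnc read 2.93 and 8.32 in the controls and 3.67, 3.48, 4.44 and 3.92 in the SRFHKO hearts. In each of the 3 genes replicate 2 of the controls was the highest day 8 array, and replicate 1 lay within or below the SRFHKO range. The fitted differences were -1.30 ± 0.36 for Postn (adjusted p = 0.12), -1.33 ± 0.38 for Fn1 (0.137) and -1.75 ± 0.97 for Tnc (0.507). None of the 13 probe sets was called, 4 had an unadjusted p under 0.05 (11.8% of all), and 0.17% of all probe sets were called. Thbs2 1447862_x_at alone separated the genotypes without overlap, at 6.54 in both controls and 4.69 to 6.12 in the SRFHKO hearts (adjusted p = 0.375), as 8.03% of all did in the lower direction. For the interaction of day and genotype 0 of the 13 were called and 3 had an unadjusted p under 0.05, against 0.0407% and 12.3% of all.

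The day 8 result turned on which control array was kept. A fit that drops 1 of them leaves a single control heart, so only differences are given. Without control replicate 1 the difference was -2.11 for Postn, -2.54 for Fn1, -4.45 for Tnc and -1.68 for Thbs2 1422571_at. Without control replicate 2 the same probe sets differed by -0.48, -0.13, 0.94 and -0.37. Control replicate 2 lay above the other 11 arrays without PE in 5 of the 13 probe sets, against 8.07% of all probe sets tested. Its Col1a1 level, a fibrillar collagen chain, was 10.80 against 8.17 in replicate 1, and Col3a1 was 11.91 against 10.35. These collagens were picked after their values were seen. Its summed scaled signal of 12 fibroblast markers was 18094 against 15466 in replicate 1. Col1a1 and Col3a1 are among these 12 markers, so the sum is not separate from their levels. The sum of 14 macrophage markers was 4947 against 3801, and that of 10 cardiomyocyte markers was 78535 against 94604. The fibroblast marker Pdgfra read 8.05 against 8.20 and Dcn 11.79 against 12.15. Both control sums of fibroblast markers lay above those of the 4 SRFHKO hearts of day 8, at 11670 to 14642. Of the 25 fibroblast probe sets 9 had an unadjusted p under 0.05 between the genotypes at day 8 (11.8% of all), with a median difference of -0.23 and 0 called by limma. The ratio of the 3′ to the 5′ Gapdh control probe sets was 1.01 and 1.02 in the controls and 0.850 to 0.936 in the SRFHKO hearts. The 18S ribosomal signal was 2426 and 3069 in the 2 controls against 705 to 1402 in the SRFHKO hearts of day 8. The part of these in the result was not tested.

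**Figure D4:**
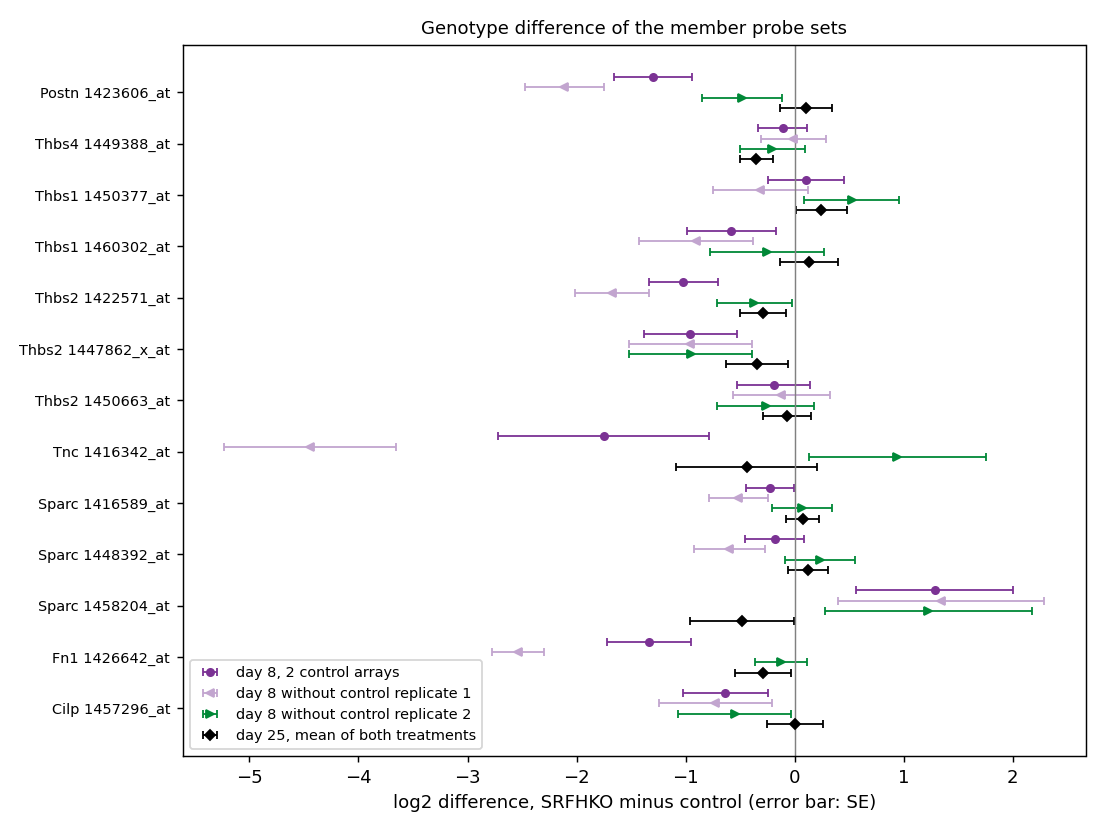
Difference in level between SRFHKO and control (error bar: SE) for the 13 tested probe sets at day 8 with both control arrays, at day 8 without either control array in turn, and at day 25 averaged over both treatments. For Postn the day 8 difference is -1.30 with both controls, -2.11 without replicate 1 and -0.48 without replicate 2, beside 0.10 at day 25.

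Related genes of the matrix were taken from lists of the pathway. Among microfibril and elastic fibre genes, 3 of 18 probe sets rose with PE over both genotypes and 0 fell, against 0.411% of all called higher and 0.141% called lower, with a list median of 0.06. Mfap5, a microfibril-associated glycoprotein, rose by 1.29 ± 0.21 (1449082_at, adjusted p = 0.00646) and 0.94 ± 0.20 (1418454_at, 0.0333), and was called in 20 of 21 and 11 of 22 alternatives. Ltbp2, a latent transforming growth factor binding protein of microfibrils, rose by 1.21 ± 0.27 (adjusted p = 0.049) and kept its call in 8 of 22 alternatives. Among proteoglycans 3 of 24 probe sets rose and 0 fell, against the same shares of all, with a list median of -0.02. Biglycan (Bgn), which binds collagen, rose by 0.64 ± 0.12 and 0.57 ± 0.11 in 2 probe sets (adjusted p = 0.0184 and 0.0185), each called in 17 of 21 alternatives. Asporin (Aspn), a related small leucine-rich protein, rose by 0.79 ± 0.15 (0.0224) and was called in 14 of 22 alternatives.

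Of the genes that act upstream, those of transforming growth factor beta signalling and its partners, 4 of 36 probe sets rose with PE over both genotypes and 1 fell, against 0.411% and 0.141% of all, with a list median of 0.19. The ligand Tgfb2 rose by 1.09 ± 0.18 (1423250_a_at, adjusted p = 0.008) and 1.03 ± 0.22 (1450923_at, 0.0333). The ligand Tgfb3 rose by 0.59 ± 0.11 (0.0185) and the receptor gene Tgfbr1 by 0.44 ± 0.09 (0.0254). Agtr1a, the angiotensin II type 1a receptor, fell by 0.63 ± 0.12 on the log2 scale (0.0165). The first Tgfb2 probe set was called in 21 of 22 alternatives and the second in 11 of 21, Tgfb3 in 18 of 22 and Tgfbr1 in 12 of 22. Agtr1a was called in 20 of 22. Its call was lost without replicate 3 of the control hearts lacking PE and with no intensity trend (adjusted p up to 0.0934 over all alternatives). In SRFHKO hearts alone Tgfb2 rose by 1.38 and Tgfb3 by 0.84, and Agtr1a fell by 0.84 (adjusted p from 0.033 to 0.0413), beside 3 Bgn probe sets that rose by 0.80 to 0.85. Each of these calls within SRFHKO hearts was lost when single arrays were left out and with no intensity trend, with adjusted p up to 0.3 over all alternatives.

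Among receptors of the matricellular proteins (integrins, Cd44, Cd47, Cd36, syndecans and others), 0 of 43 probe sets were called with PE over both genotypes by limma (0.551% of all) and 11 had an unadjusted p under 0.05 (12% of all). Among the other matricellular genes, 0 of 36 probe sets were called higher and 1 lower, against 0.411% and 0.141% of all. Unadjusted p was under 0.05 for 12 of these 36 (12% of all). The call was of the dim Cilp paralogue Cilp2, at -1.79 ± 0.37 (adjusted p = 0.0325). Its mean level with PE was 2.90, below the filter limit, and it kept its call in 9 of 19 alternatives. The list medians were 0.07 and 0.12.

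Between the genotypes at day 25, over both treatments, 5.84% of all probe sets were called. In the lists 0 of 24 probe sets of proteoglycans, 1 of 18 of microfibril genes and 2 of 43 of receptors passed, near or below that share. Of upstream genes 5 of 36 passed, 4 of them probe sets of Il13ra1. Of other matricellular genes 6 of 36 passed, with 2 probe sets each of Ccn1 and Lgals1. These 6 were all higher in SRFHKO hearts, a direction in which 3.09% of all were called. Ccn1, an integrin ligand known as an SRF target, was higher by 0.89 ± 0.22 and 0.87 ± 0.24 (adjusted p = 0.0224 and 0.0373). Ccn5, a growth-restraining family member, was higher by 0.90 ± 0.26 (0.0462). The galectin gene Lgals1 was higher by 0.48 and 0.43 (0.0305 and 0.0374), and Sparcl1, a relative of Sparc, by 0.37 (0.0391). Efemp1, a fibulin, was higher by 0.67 ± 0.15 (0.011). Of receptors, 1 probe set was called higher, Itgb1 1427771_x_at, by 0.62 ± 0.13 (0.00868). It did not separate the genotypes without overlap in both treatments, and no other Itgb1 probe set was called. Cd47, a thrombospondin receptor, differed by -0.27 ± 0.07 (0.026). Without PE, Itga9 was the 1 of 43 receptor probe sets called, at -0.85 ± 0.18 (0.0206), near the 2.18% of all called there. Il13ra1, an interleukin 13 receptor chain, was higher in 4 probe sets, by 0.47 to 0.75 (adjusted p from 0.000342 to 0.02), and Mrtfa, an SRF coactivator, differed by -0.49 ± 0.13 (0.0297). Under scaling to a common median Cd47 differed by -0.10 (adjusted p = 0.473) and Mrtfa by -0.32 (0.13). Efemp1 and Itgb1 kept their calls in 22 of 22 and 21 of 21 alternatives, whereas Ccn1 did so in 17 of 22 and 13 of 21, Lgals1 in 13 of 21 and 12 of 22, Sparcl1 in 10 of 22 and Ccn5 in 9 of 22. Cd47 was called in 13 of 21, Mrtfa in 14 of 22 and Itga9 in 10 of 16.

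Whole ventricles were hybridised, so more cells of a type and more RNA per cell cannot be told apart. None of the 25 probe sets of the 12 fibroblast markers was called with PE in either genotype or over both, by limma. Of all probe sets tested, 0.0259% were called in control hearts, 0.185% in SRFHKO hearts and 0.551% over both. With shares that low, 0 calls say little of these markers. Over both genotypes 8 of the 25 probe sets had an unadjusted p under 0.05 (12% of all probe sets did). Their median difference over both was -0.03, as over all probe sets, and it was 0.09 in SRFHKO and -0.06 in control hearts. In SRFHKO hearts 7 of the 25 lay higher with PE without overlap (7.31% of all) and 2 lower (8.5%). Unadjusted p was under 0.05 there for 6 (9.81%). The same counts in control hearts were 2 (5.81%), 1 (8.17%) and 1 (10.1%). The summed scaled signal of the 12 markers was 12030 to 15727 in control hearts without PE and 13625 to 14991 with PE. The SRFHKO sums were 11224 to 14801 without PE and 13792 to 16613 with PE. None of 11 probe sets of myofibroblast and smooth muscle markers, including Acta2, and none of 21 of macrophage markers was called with PE over both genotypes. The share of all called was 0.551%. Unadjusted p was under 0.05 for 3 and 2 of them, against the same 12% of all. Their summed levels with PE were 5370.5 to 7077 and 3498 to 4522, against 4526 to 7598 and 3196 to 4539 without. The 10 cardiomyocyte markers had a median difference of -0.13 with PE over both genotypes. Of their 23 probe sets 8 had an unadjusted p under 0.05 (12% of all), and 0 were called by limma (0.551% of all). Their summed signal averaged 113720 without and 103520 with PE in control hearts, and 92810 and 83831 in SRFHKO hearts. The part of cell makeup in the rise of Postn, Thbs4 and Cilp was not tested beyond these values.

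The genes whose level ran most like that of Postn over the 18 arrays, out of 12608 genes, were Ltbp2, Mfap5, Col5a2, Col8a1 and Tgfbr2. Their Pearson correlations were 0.955, 0.917, 0.915, 0.907 and 0.905, as a description. The arrays share the PE and day contrasts, and any array run that followed the days. With the group means removed, and both day 8 control arrays kept, the correlations were 0.841, 0.813, 0.908, 0.757 and 0.678. Col8a1, a short-chain collagen of the vessel wall, rose with PE by 1.53 ± 0.17 over both genotypes (adjusted p = 0.000383) and was called in 22 of 22 alternatives. Col5a2, a chain of fibril-forming collagen, differed by 0.95 ± 0.26 (0.102) and Tgfbr2 by 0.20 ± 0.08 (0.325). Like Postn, Col5a2 was high in control replicate 2 of day 8, at 9.52 against 7.67 in replicate 1.

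Within the set, Cilp ran most like Postn (0.936 over 18 arrays). Thbs1 1460302_at (0.843), Sparc 1448392_at (0.835), Thbs4 (0.833) and Fn1 (0.698) followed. The order below Cilp depended on the arrays and the group means. Without control replicate 2 of day 8, Cilp stood at 0.971, Thbs4 at 0.886, Thbs1 at 0.868, Fn1 at 0.835 and Sparc at 0.834. With the group means removed, Fn1 was highest at 0.772, followed by Cilp at 0.679, with Tnc at 0.637, Sparc 1416589_at at 0.62, Thbs1 at 0.597 and Thbs4 at 0.45. These last values keep both day 8 control arrays and were not recomputed without control replicate 2. The day 8 controls had the largest SD of any group for Postn (1.15), Fn1 (1.70) and Tnc (3.81), so that pair weighs heavily in them. Cilp and Thbs4 correlated at 0.917 over 18 arrays. The probe sets of Thbs2 ran from -0.19 to 0.28 with Postn over 18 arrays. With the group means removed they stood at 0.457 (1422571_at), -0.0718 (1447862_x_at) and -0.215 (1450663_at), again with both day 8 control arrays kept. The 2 Thbs1 probe sets correlated at 0.923 (0.833 with the group means removed), and the Sparc probe sets 1416589_at and 1448392_at at 0.427 (0.782 with the group means removed).

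**Figure D5:**
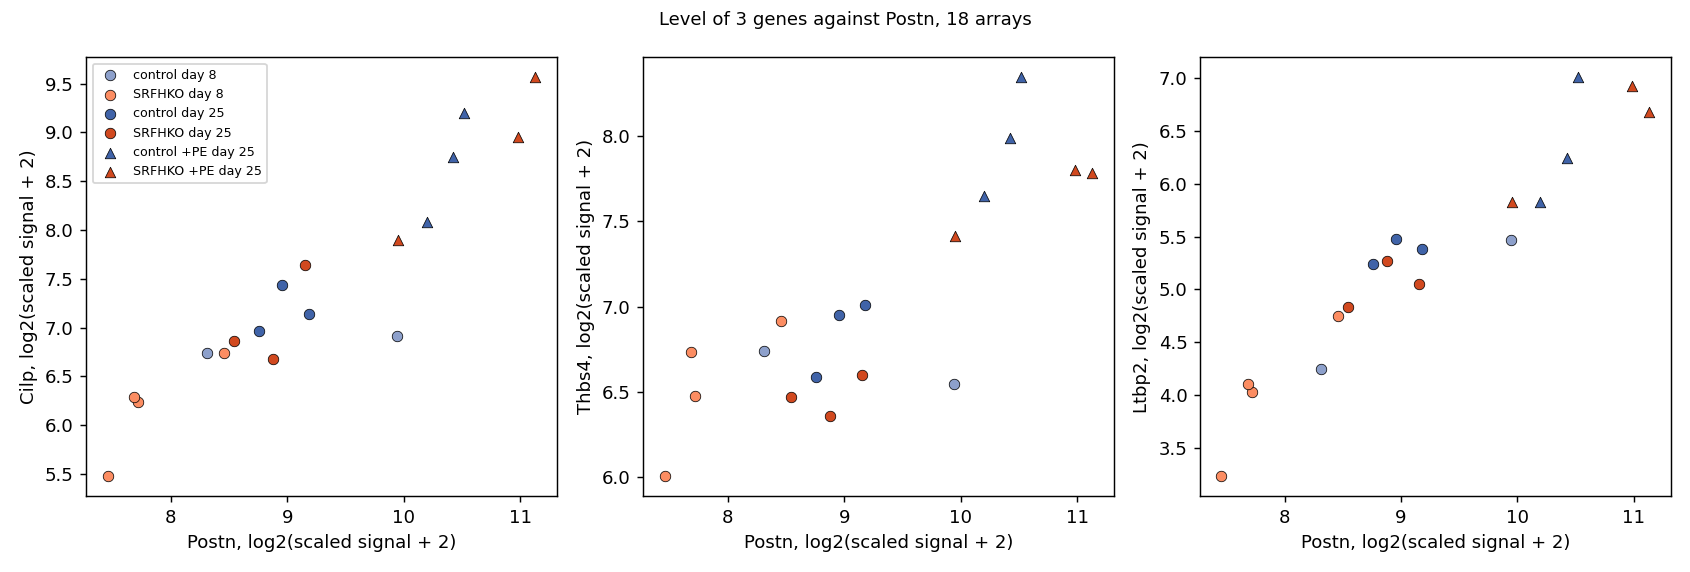
Level of Cilp, Thbs4 and Ltbp2 against that of Postn on the 18 arrays, coloured by group with triangles for PE; both axes are log2(scaled signal + 2). Arrays with PE lie at the upper right in each panel, and the day 8 control array at a Postn level of 9.94 has Cilp at 6.92 and Thbs4 at 6.55, away from the PE arrays.

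Ranked by group mean, Postn was highest in SRFHKO hearts with PE (10.69 ± 0.64) and in control hearts with PE (10.38 ± 0.16), which overlapped. Next came control hearts at day 8 (9.13 ± 1.15, n = 2), control hearts at day 25 (8.97 ± 0.21) and SRFHKO hearts at day 25 (8.86 ± 0.31), which also overlapped among neighbours. SRFHKO hearts at day 8 were lowest (7.83 ± 0.43, n = 4), below all SRFHKO hearts of day 25. Thbs1 1460302_at lay at 3.81 to 5.23 in the 6 day 8 hearts and at 4.80 to 6.02 in the 6 day 25 hearts without PE, which overlap. Levels of the 2 days are given side by side only, since an array run that followed the days could not be told apart from day.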

How the data were processed

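Each of the 18 arrays measured ventricular RNA of a heart hybridised as biotinylated cRNA to an Affymetrix mouse array. Per the submitters' processing notes the signals came from GCOS (version not given in the sources used here), and the deposited intensity values are linear signals not brought to a common level: their trimmed means, leaving out 2% at each end, ran from 46.6 to 148. Precision is limited by 2 to 4 arrays a group. Probe sets were named through GEO's platform annotation with symbols updated by RefSeq gene ID: 34958 have 1 symbol (34754 matched), 932 several and 9211 none. The arrays were scaled to a common trimmed mean of 90.6, 64 control probe sets were left out, 2 was added and log2 taken. Probe sets under the 40th percentile of mean level (3.58, a scaled signal of 9.94) were left out, and 27022 remained. limma 3.58.1 in R 4.3.3 fitted 6 group means over the 18 arrays with an intensity trend. P-values are two-sided and Benjamini-Hochberg adjusted over all 27022 for each of 9 contrasts. The fit was tested on simulated data. The labels call the samples biological replicates without naming litters. Replicate numbers were not used as a block.

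The member genes and the lists were chosen with earlier results of these data known. Named besides the members are up to 4 genes with the smallest adjusted p of each pathway list in a contrast, and the 5 genes most like Postn by Pearson correlation, taking the brightest probe set per gene. Marker genes and the collagens of day 8 are given as values. Alternatives changed the scaling, pseudocount, filter, probe sets per gene, trend, block, arrays fitted and, in turn, each array; for the list genes they were added after seeing the data.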

Additional observations from a re-analysis of the deposited data

How the results depend on the processing

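Over both genotypes, the PE calls of Postn and Thbs4 held in 22 of 22 alternatives and that of Cilp in 21 of 22 (adjusted p = 0.0565 with no intensity trend). Of 2121 single member values under alternatives, 1973 kept direction and side of the threshold, 14 lost and 11 gained a call, 123 uncalled values changed sign and 0 called values reversed. For PE in SRFHKO hearts 2 members were called, 0 with no trend, 1 (Thbs4) with the replicate block, 2 with the compared groups alone (Postn lost, Sparc 1448392_at gained) and 0 to 3 when single arrays were left out. For PE in control hearts 0 were called, 1 (Thbs4) under scaling to a common median, 1 (Postn) with the compared groups alone and 0 to 1 with arrays left out. With arrays left out the count at day 8 was 0 to 4 and for the interaction of day and genotype 0 to 1 (Fn1 at 1.90, adjusted p = 0.0207, without control replicate 1 of day 8). The cause was not tested; fewer arrays alone widen the error. Same-numbered arrays correlated at -0.045 to 0.074 (day 25) and 0.0369 to 0.0548 (day 8) in their deviations, and under the replicate block Postn in SRFHKO hearts had adjusted p = 0.0766.

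Counts over all probe sets moved more. Calls for PE over both genotypes numbered 149 (19 to 239 over alternatives), in SRFHKO hearts 50 (2 to 116) and in control hearts 7 (0 to 17). For genotype they numbered 46 at day 8 (1 to 77 with both day 8 control arrays kept). At day 25 they numbered 590 without PE (92 to 1649), 251 with PE (47 to 323) and 1578 over both (812 to 2998). The interactions had 1 (0 to 3) and 11 (0 to 348). Scaling to a common median moved the median of all probe sets from -0.04 to 0.17 for genotype without PE and from -0.03 to 0.11 for PE in control hearts. Of 765 values of list genes, 540 were unaltered in call, 224 lost it, 1 gained it and 0 reversed.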
